A study of Mus musculus with 2 samples.

Results

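Parp9, Parp10, Parp12, Parp14, Dtx3l, Pml, Sp100, Daxx, Xaf1 and Rnf213 were followed across the immune cell classes of mouse spleen. They are 4 ADP-ribosyltransferase genes with the partner of one of them, 3 genes of nuclear Pml bodies, and a pair of further genes that respond to interferon. They were taken by their symbols from the deposited gene list, in which each symbol had 1 row, and make up 10 of 32285 genes. All mice were wild type and had been injected intraperitoneally with 10000 iRBCs (the labels leave this abbreviation unexplained). They were given either Vehicle or Glutoborin, a compound for which the labels give the name alone, on days 2 and 4. Spleens were taken on day 5, cells carrying the leukocyte antigen CD45 were sorted, and their transcripts were counted with unique molecular identifiers (UMIs) in droplet libraries. There was 1 library per group, and the number of mice behind it is not stated in the labels. The spread between animals could therefore not be measured, no test was run, and the 95% intervals cover counting error only.

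PARP proteins transfer ADP-ribose from NAD+ to other molecules. Parp10, Parp12 and Parp14 add single ADP-ribose units, Parp9 has macrodomains that bind ADP-ribose and works as a partner of the ubiquitin ligase Dtx3l, and Parp14 also carries macrodomains. Pml scaffolds the nuclear bodies named after it, to which Sp100 and the histone H3.3 chaperone Daxx are recruited and which silence incoming viral genomes. Xaf1 binds the caspase inhibitor Xiap, and Rnf213 is a very large ubiquitin ligase with an ATPase core that coats intracellular bacteria and parasite vacuoles. Most of these genes are known to be induced by interferons.

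The Vehicle library held 8204 barcodes with 48526451 UMIs and the Glutoborin library 9646 barcodes with 56862506 UMIs, and 24 barcode sequences occurred in both. The libraries differed in the share of barcodes with at least 10% mitochondrial UMIs, which was 18.5% in Vehicle and 4.07% in Glutoborin, and these were left out along with called doublets. The 6492 Vehicle and 8901 Glutoborin cells kept had medians of 5688 and 4811 UMIs. Ptprc, which encodes CD45, had a UMI in 96.0% and 94.5% of them. Clusters were named from cell type markers, so each name below means cells like that type. Levels are given as CPM, the UMIs of a gene per 1000000 UMIs of its class and library. Differences were described in 7 classes, those holding 100 cells or more on both sides. In Vehicle and Glutoborin these were 3531 and 5131 B cells, 860 and 1111 CD4 T, 755 and 1088 CD8 T, 128 and 156 regulatory T, 255 and 354 NK cells, and 237 and 172 monocytes. The last class, 133 and 168 other T cells, joined 3 T cell clusters given no finer name, led among other genes by Trdc and Tcrg-C1, by Birc5 and Pclaf, and by Tnfrsf9 and Crtam. Orders of levels refer to these 7 compared classes, and smaller classes are given at the end. Transcripts used as markers of other cell types also differed between the libraries, in most but not all classes towards lower levels in Glutoborin. Lyz2, a monocyte and macrophage transcript, stood at 102 CPM in Vehicle B cells and 38.5 CPM in Glutoborin B cells, and at 2000 UMIs per cell it was found in 19.2% and 6.92% of them. The 14 monocyte markers together had 2329 and 1356 CPM in B cells, with 12 of 14 higher in Vehicle and none at 0. In monocytes they had 44669 and 42770 CPM. The B cell sum was thus a larger share of its monocyte level than Lyz2 was, at 0.507% and 0.167%. How much of it was the B cells' own RNA was not tested. Igkc, an antibody light chain transcript, was at 601 and 280 CPM in CD4 T cells, although its B cell levels were 10794 and 10776 CPM. The 10 B cell markers had 262 and 158 CPM in monocytes, with 10 of 10 higher in Vehicle and none at 0. The direction was the opposite for these B cell markers in other T cells, at 208 and 316 CPM, and for the 11 T cell markers in NK cells, at 1033 and 1329 CPM. In NK cells Cd3e, a T cell receptor subunit gene, had 8.82 and 24.1 CPM, a log2 ratio of 1.45 (0.74 to 2.22). Cd3e made up little of that T cell marker sum, and the NK cells' own part in it was not tested. Monocyte RNA was also subtracted in proportion to Lyz2, and B cell RNA in proportion to Igkc. Resulting ratios are given where they change a call or a direction named here. The most either moved a member's log2 ratio was 0.16 for Lyz2 and 0.42 for Igkc.

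A group of 3 of the 10 genes lie side by side. On the GRCm38 assembly Parp14 (chr16:35832874-35871544, minus strand), Dtx3l (chr16:35926511-35939151, minus) and Parp9 (chr16:35938470-35972605, plus) lie within 139732 bases of chromosome 16. Dtx3l and Parp9 are transcribed away from each other and overlap by 682 bases at their starts. The flanking genes Hspbap1 and Kpna1 had 784 and 1718 UMIs over all Vehicle barcodes against 867 and 1822 over all Glutoborin barcodes, whereas the 3 members had 9507 and 5614 (Parp14), 6528 and 4558 (Dtx3l) and 4931 and 3235 (Parp9). Xaf1 (chr11:72301629-72313733, plus) and Rnf213 (chr11:119393100-119487418, plus) share chromosome 11 but lie far apart. The others were Parp10 (chr15:76231174-76243441, minus), Parp12 (chr6:39086410-39118349, minus), Pml (chr9:58218076-58249786, minus), Sp100 (chr1:85649988-85709998, plus) and Daxx (chr17:33909414-33915590, plus). No other transcript matched the last 500 bases of a member at 95% identity or more over at least 100 bases. Rnf213 is overlapped on the opposite strand by the noncoding gene A930037H05Rik over 38631 bases. Parp10 overlaps Plec on its own strand by 1401 bases, and how reads there were counted was not examined. Plec did not move with Parp10: in B cells its log2 ratio was 0.20 (95% interval 0.06 to 0.34), against -0.88 for Parp10.

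Promoter windows from 250 bases before to 50 after the start were taken from RefSeq (GRCm38.p6) for the 7 members that had one, namely Parp12, Dtx3l, Pml, Sp100, Daxx, Xaf1 and Rnf213. They are shown because the members differed together between the libraries and interferon-responsive promoters often carry sites for IRF factors. The windows were searched on both strands for the full interferon-stimulated response element (GAAA, any 2 bases, GAAA) and for the shorter IRF core AANNGAAA. The first contains the second, so their matches can overlap. Sp100 had 2 windows and Daxx 3. The full element was in 0 of 7 members and in 3.99% of all genes with a window. The IRF core was in 4 of 7 members and in 26.7% of all genes with a window. Capitals mark the IRF core, read as printed or as its reverse complement TTTCNNTT. The 4 members with a match (the first of the windows of Sp100, both of which held matches), followed by Rnf213, which had none, read as follows, 5′ to 3′ on the gene's own strand.
Dtx3l (chr16:35938978-35939277, minus): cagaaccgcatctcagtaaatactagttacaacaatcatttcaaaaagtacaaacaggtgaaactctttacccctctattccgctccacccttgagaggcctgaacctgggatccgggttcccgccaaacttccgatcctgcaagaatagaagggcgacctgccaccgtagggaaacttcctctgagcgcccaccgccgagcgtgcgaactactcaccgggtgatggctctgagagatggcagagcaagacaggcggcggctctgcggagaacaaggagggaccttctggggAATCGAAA
Pml (chr9:58249737-58250036, minus): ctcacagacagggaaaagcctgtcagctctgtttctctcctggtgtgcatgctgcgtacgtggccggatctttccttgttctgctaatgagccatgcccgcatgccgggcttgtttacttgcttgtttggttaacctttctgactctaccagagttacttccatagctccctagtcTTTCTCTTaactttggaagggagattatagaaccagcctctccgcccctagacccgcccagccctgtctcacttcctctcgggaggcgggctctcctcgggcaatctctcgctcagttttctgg
Sp100 (chr1:85649738-85650037, plus): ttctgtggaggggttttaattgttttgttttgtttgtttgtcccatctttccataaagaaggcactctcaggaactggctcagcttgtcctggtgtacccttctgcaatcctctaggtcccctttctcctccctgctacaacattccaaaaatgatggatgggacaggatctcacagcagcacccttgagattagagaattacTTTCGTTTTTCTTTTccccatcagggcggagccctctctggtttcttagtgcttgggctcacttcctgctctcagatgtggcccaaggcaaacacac
Xaf1 (chr11:72301379-72301678, plus): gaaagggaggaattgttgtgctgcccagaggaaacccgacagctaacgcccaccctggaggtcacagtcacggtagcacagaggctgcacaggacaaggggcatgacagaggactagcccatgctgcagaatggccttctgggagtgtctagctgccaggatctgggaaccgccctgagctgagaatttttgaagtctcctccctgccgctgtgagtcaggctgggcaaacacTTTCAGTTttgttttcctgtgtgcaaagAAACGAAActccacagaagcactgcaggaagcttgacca
Rnf213 (chr11:119389849-119390148, plus): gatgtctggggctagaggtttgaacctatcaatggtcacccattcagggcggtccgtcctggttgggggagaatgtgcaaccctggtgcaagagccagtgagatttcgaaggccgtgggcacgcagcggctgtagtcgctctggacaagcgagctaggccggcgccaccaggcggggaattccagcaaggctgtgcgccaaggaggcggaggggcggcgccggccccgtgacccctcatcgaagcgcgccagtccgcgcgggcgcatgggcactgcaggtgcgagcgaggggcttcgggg
Xaf1 held a match on each side of its start, and Sp100 held a pair of overlapping matches, which run together in the capitals. The Rnf213 window follows the RefSeq start, which differs from the start given above. A match is a run of letters and not a measured binding site, and the absence of a match says nothing about the factor.

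The members were lower in Glutoborin than in Vehicle cells in nearly every class. In B cells 9 of 10 were at least 1.5-fold lower, against 3.32% of the 10617 genes with at least 50 UMIs in that class, with a median log2 ratio of -1.05 beside 0.02 over all these genes. Monocytes had 7 of 10 members lower (background 5.54%), with a median of -0.73, and 4 with the Glutoborin clusters weighted as in Vehicle. In CD4 T cells the count was 9 of 10 (background 3.31%), with a median of -0.80, but it was 4 or 5 with doublets kept, a mitochondrial limit of 25% or a coarser clustering. CD8 T cells had 5 of 10 members lower (background 2.64%), with a median of -0.59, but 9 with a mitochondrial limit of 25% and 3 after the Igkc subtraction. Parp9 and Dtx3l fell just short of the limit there, both at a log2 ratio of -0.58, and Parp14 just passed it at -0.59. After subtraction Parp14 fell short in these cells, at -0.52 (Igkc) and -0.58 (Lyz2), as did Pml at -0.57 (Igkc). Among the 9 members measured with at least 50 UMIs, 6 were lower in regulatory T cells (background 5.31%), 4 in other T cells (background 7.50%) and 3 in NK cells (background 5.68%). The medians in those classes were -0.61, -0.45 and -0.49. In regulatory T cells Dtx3l fell short of the limit after the Igkc subtraction, from -0.61 to -0.58. Daxx did so in other T cells after either subtraction, from -0.59 to -0.57 (Igkc) and -0.58 (Lyz2). The regulatory T cell count was 3 with doublets kept and 2 after thinning before summing, and the other T cell count was 9 with doublets kept, 10 at the coarser clustering and 1 after thinning. No member was 1.5-fold higher in any of the 7 classes, where the background of higher genes was 2.51% in B, 2.60% in CD4 T, 1.85% in CD8 T, 2.44% in regulatory T, 6.40% in other T and 6.83% in NK cells, and 3.60% in monocytes. Counting intervals of the log2 ratio lay wholly below 0 for all 10 members in B, CD4 T and CD8 T cells and in monocytes. The share of all genes with such an interval was not computed. At these depths small ratios can have one, as for Sumo3 in B cells at -0.13 (-0.23 to -0.02). Of 11 transcripts typical of B, plasma, myeloid, T or red blood cells, 7 of the 10 measured in B cells were lower (median -0.76), as were 6 of 9 in CD4 T cells (-0.86) and 6 of 9 in CD8 T cells (-0.73). This list includes the classes' own genes, such as Cd79a at 0.18 in B cells, and its part in the members' ratios beyond the subtractions was not tested.

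**Figure D1:**
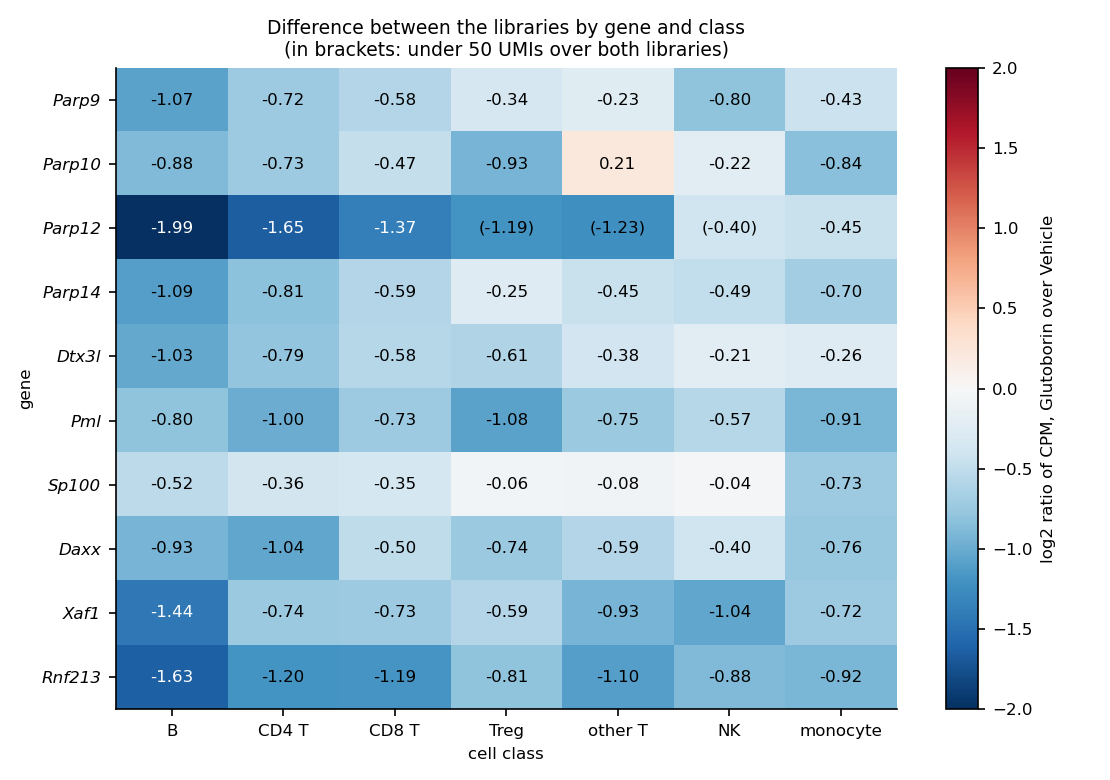
Log2 ratio of CPM, Glutoborin over Vehicle, for the 10 genes (rows) in 7 cell classes (columns), with blue for lower in Glutoborin and red for higher. Values in brackets rest on under 50 UMIs. The Rnf213 and Xaf1 rows are blue throughout, from -0.81 to -1.63 and from -0.59 to -1.44, while Sp100 is nearly white in regulatory T, other T and NK cells.

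Among the ADP-ribosyltransferases, Parp14 had 4076 UMIs in Vehicle and 2440 in Glutoborin B cells, or 206 and 96.7 CPM, a log2 ratio of -1.09 (-1.17 to -1.02). Among the compared classes its level was highest in monocytes, at 324 CPM in Vehicle and 199 in Glutoborin, and lowest in other T and NK cells, at 76.5 and 77.0 CPM in Vehicle. The monocyte interval overlapped none of the other 6 compared classes in Vehicle, whereas B cells, CD4 T cells and regulatory T cells had neighbouring intervals that overlapped. In regulatory T cells Parp14 went from 183 to 154 CPM, a log2 ratio of -0.25 whose interval, -0.60 to 0.10, included 0.

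Parp9 and Dtx3l, which form a heterodimer and share a start region, had similar ratios in B cells. Parp9 went from 95.5 to 45.4 CPM (log2 ratio -1.07, -1.18 to -0.97) and Dtx3l from 112 to 54.9 CPM (-1.03, -1.13 to -0.93). Both were close to each other again in CD4 T cells, at -0.72 and -0.79, and in CD8 T cells, at -0.58 and -0.58. They parted in NK cells, where Parp9 had a ratio of -0.80 (-1.20 to -0.41) and Dtx3l -0.21 (-0.55 to 0.12), although these intervals overlap. In monocytes both members of the pair had small ratios, -0.43 for Parp9 and -0.26 for Dtx3l, and Dtx3l stood at 227 and 190 CPM. Among the compared classes in Vehicle, Parp9 was highest in monocytes at 138 CPM and in CD4 T cells at 132 CPM, with overlapping intervals, and lowest in other T cells at 56.1 CPM.

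Parp10 was measured with fewer counts, 585 and 405 UMIs in B cells, which gave 29.6 and 16.1 CPM and a log2 ratio of -0.88 (-1.07 to -0.70). Its Vehicle levels were 58.3 CPM in monocytes, 56.8 in CD4 T cells and 54.5 in regulatory T cells, and these neighbours did not differ beyond their intervals. Other T cells were the only compared class in which a member had a higher value in Glutoborin, 23.8 against 27.5 CPM for Parp10, with an interval of the log2 ratio from -0.36 to 0.77. This direction turned to -2.03 with doublets kept and to -0.91 at the coarser clustering.

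Parp12, which localizes to the Golgi and to stress granules, had the most restricted pattern. In monocytes its level was 135 CPM for Vehicle and 98.8 CPM for Glutoborin, in CD4 T cells at 20.7 and 6.62 CPM, and in B cells at 2.99 and 0.753 CPM. Its monocyte level was thus 48.1-fold above the lowest compared class, NK cells, in Vehicle, the widest such difference of any member. At 2000 UMIs per cell 16.3% of Vehicle monocytes and 15.7% of Glutoborin monocytes held a Parp12 UMI, against 0.835% and 0.217% of B cells, whose median depths were 4742 and 4103 UMIs against 10838 and 11246 for monocytes. The B cell ratio, -1.99 (-2.82 to -1.22), was the lowest of the 70 values but rested on 59 and 19 UMIs, and Lyz2, which B cells are not known to express, had a ratio of -1.40 in the same cells. With monocyte RNA subtracted in proportion to Lyz2, the Parp12 ratio in B cells was -1.97. In CD4 T cells it was -1.65 (-2.23 to -1.09) and in CD8 T cells -1.37 (-1.89 to -0.86), against -0.45 (-0.72 to -0.18) in monocytes, so the monocyte interval lay above those of the other 3 classes. Regulatory T, other T and NK cells held at most 20 Parp12 UMIs per library.

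**Figure D2:**
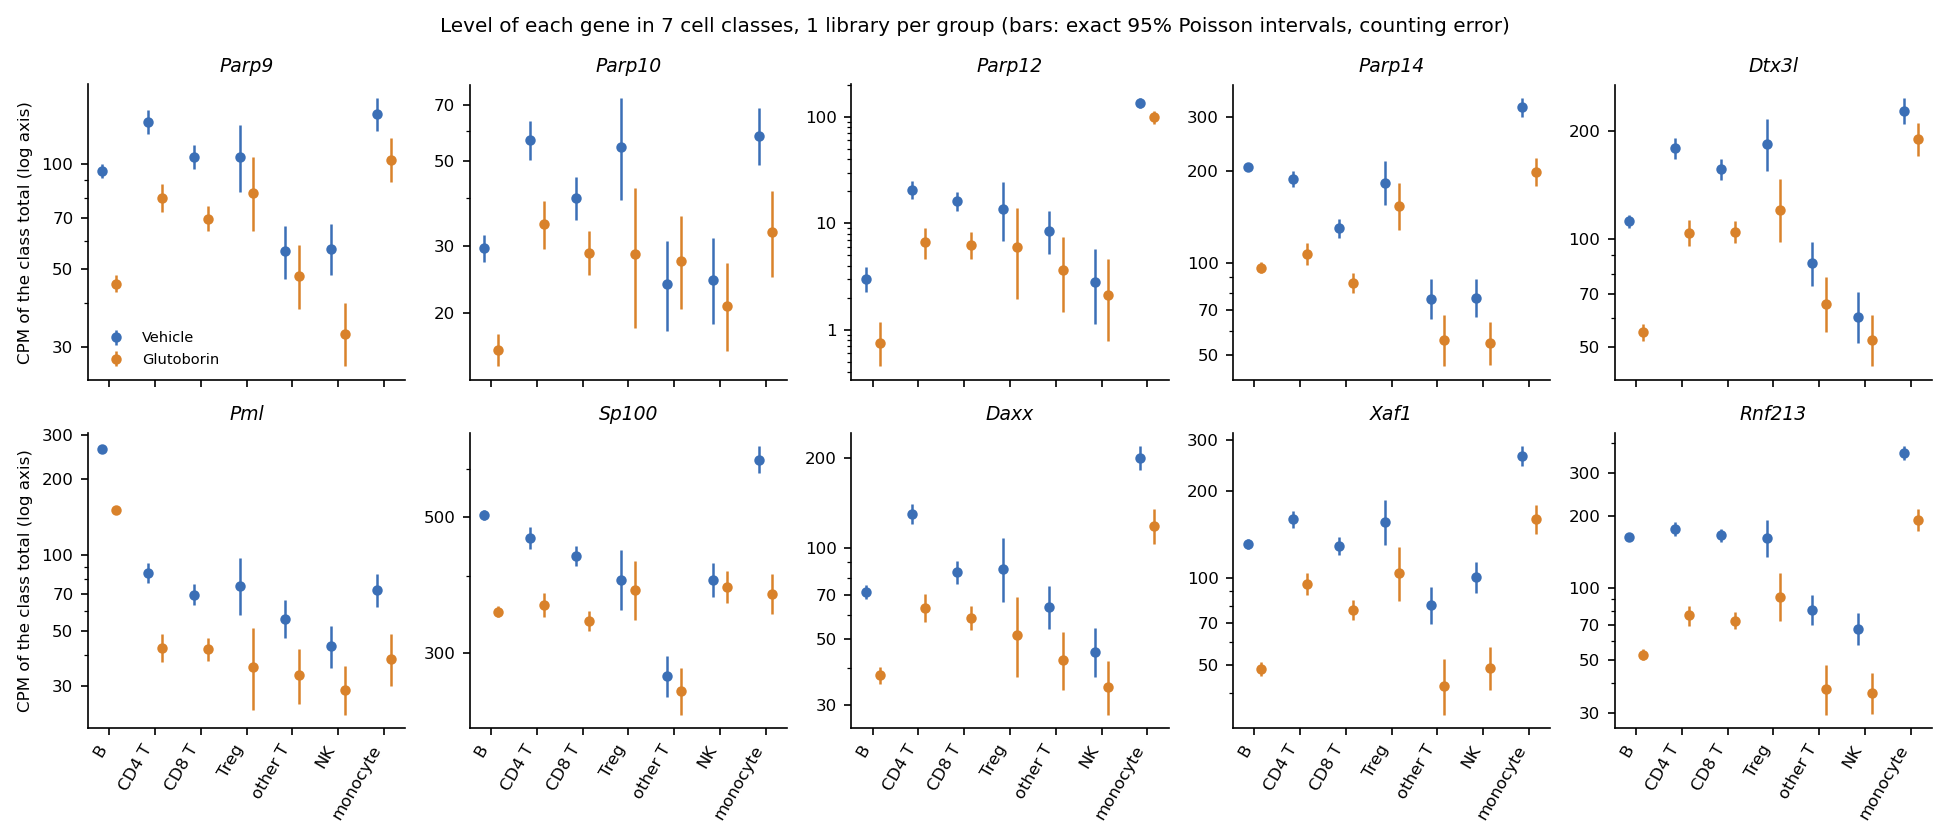
Level of each gene in CPM (log axis, scaled for each gene) in 7 cell classes, Vehicle in blue and Glutoborin in orange, with exact 95% Poisson intervals as bars. Pml is highest in B cells, at 264 CPM in Vehicle, and Parp12 in monocytes, at 135 CPM; the Glutoborin point lies below the Vehicle point everywhere except for Parp10 in other T cells.

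Of the genes of Pml bodies, Pml itself had 5218 UMIs in Vehicle and 3822 in Glutoborin B cells, or 264 and 151 CPM, a log2 ratio of -0.80 (-0.86 to -0.74). It was the one member with its highest level in B cells. The other 6 compared classes stood between 43.3 CPM (NK cells) and 84.9 CPM (CD4 T cells) in Vehicle and between 29.1 and 42.6 CPM in Glutoborin, so B cells remained apart from all of them in both libraries. Its ratio differed little between classes, from -0.57 in NK cells to -1.08 in regulatory T cells, and the B cell interval overlapped that of every other compared class. The NK cell value was -0.15 once B cell RNA was subtracted in proportion to Igkc, which was 627 CPM in Vehicle and 278 in Glutoborin NK cells. Cd79a, another B cell transcript, differed less there, at 92.6 and 69.2 CPM (log2 ratio -0.42 against -1.18 for Igkc). A subtraction in proportion to Cd79a was not run, so this value depends on the transcript chosen.

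Sp100 had the smallest difference of the measured members in every compared class but monocytes. B cells went from 504 to 350 CPM, a log2 ratio of -0.52 (-0.57 to -0.48), CD4 T cells from 462 to 359 CPM (-0.36) and CD8 T cells from 432 to 338 CPM (-0.35). In regulatory T, other T and NK cells the ratios were -0.06, -0.08 and -0.04, each with an interval across 0, and in the first and last of these they turned to 0.00 and 0.04 after the Igkc subtraction. In other T cells the Sp100 ratio was -2.41 with doublets kept. Monocytes were the exception, with Vehicle at 621 and Glutoborin at 374 CPM (-0.73, -0.86 to -0.60), an interval below that of B cells. As a result the order of levels, which in Vehicle ran from monocytes and B cells down to NK and other T cells, flattened in Glutoborin to between 260 and 384 CPM.

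Daxx was lower by a log2 ratio of -1.04 (-1.23 to -0.85) in CD4 T cells, which went from 131 to 63.5 CPM, and by -0.93 (-1.05 to -0.81) in B cells, which went from 71.7 to 37.8 CPM. Among the compared classes monocytes had the highest Daxx level in both libraries, 201 and 119 CPM, and NK cells the lowest, 45.3 and 34.4 CPM. The NK cell ratio of -0.40 had an interval from -0.80 to 0.01.

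Xaf1 and Rnf213 were at least 1.5-fold lower in all 7 classes. Xaf1 had 2591 and 1223 UMIs in B cells, or 131 and 48.5 CPM, 2.71-fold lower (log2 ratio -1.44, -1.54 to -1.34). Its ratio was -1.04 (-1.35 to -0.73) in NK cells, where it went from 101 to 49.0 CPM, and -0.74, -0.73 and -0.72 in CD4 T cells, CD8 T cells and monocytes. Regulatory T cells were just past the limit at -0.59, and short of it after either subtraction, at -0.54 (Igkc) and -0.58 (Lyz2). In CD4 T cells Xaf1 had a ratio of -0.56 once the cluster with the highest members was left out.

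Rnf213 showed the largest difference in B cells after Parp12. There it had 3213 UMIs in Vehicle and 1331 in Glutoborin, or 163 and 52.8 CPM, 3.08-fold lower (log2 ratio -1.63, -1.72 to -1.53). In CD4 and CD8 T cells the ratios were -1.20 and -1.19, in other T cells -1.10, in monocytes -0.92, where the level was highest of the compared classes at 365 and 193 CPM, in NK cells -0.88 and in regulatory T cells -0.81. The B cell interval lay below those of the other 6 classes. Its antisense neighbour A930037H05Rik had a ratio of -1.53 (-1.76 to -1.29) in B cells, at 25.2 and 8.76 CPM, and of -1.12 and -1.02 in CD4 and CD8 T cells, while in regulatory T cells it was 0.16 (-0.80 to 1.12). Whether these are separate transcripts or reads of Rnf213 could not be told apart from the counts.

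Across members, the B cell interval lay below that of CD8 T cells for 7 of 10 genes, of other T cells for 7, of monocytes for 6, and of CD4 T, regulatory T and NK cells for 5 each. It lay above the other class only for Sp100 in monocytes. The same share over all genes was not computed. B cells also had the most UMIs, 19742257 in Vehicle and 25229573 in Glutoborin, which narrows their intervals. These counts are therefore a description and not a B cell trait of the members.

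The differences were also seen as the number of members detected in single cells thinned to 2000 UMIs. This did not hold for each member alone, since the Parp12 shares in monocytes, given above, were nearly equal. In B cells, 44.7% of 3472 Vehicle cells (43.0 to 46.4%) had UMIs of at least 3 of the 10 genes, against 15.3% of 5075 Glutoborin cells (14.4 to 16.4%), and 7.95% and 22.4% had none. CD4 T cells with at least 3 went from 42.1% to 19.4%, CD8 T cells from 36.2% to 16.6%, and monocytes from 74.4% (68.3 to 80.0%) to 40.1% (32.7 to 47.9%). In regulatory T cells the shares were 34.7% (26.4 to 43.7%) and 26.0% (19.2 to 33.6%), which overlap. Thinning left out 59 and 56 B cells. As a background, Cd3e, which B cells do not express, was found in 2.30% of the Vehicle and a lower share of the Glutoborin B cells so thinned. For single genes, Rnf213 was found in 27.7% of Vehicle and 9.42% of Glutoborin B cells after thinning, and in 51.6% and 19.7% before it. Sp100 was found in 63.0% and 48.8% after thinning, and in 87.7% and 74.5% before. No B cell held more than 18 UMIs of a member, and the 10 richest cells held at most 5.43% of a member's B cell UMIs, apart from Parp12.

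**Figure D3:**
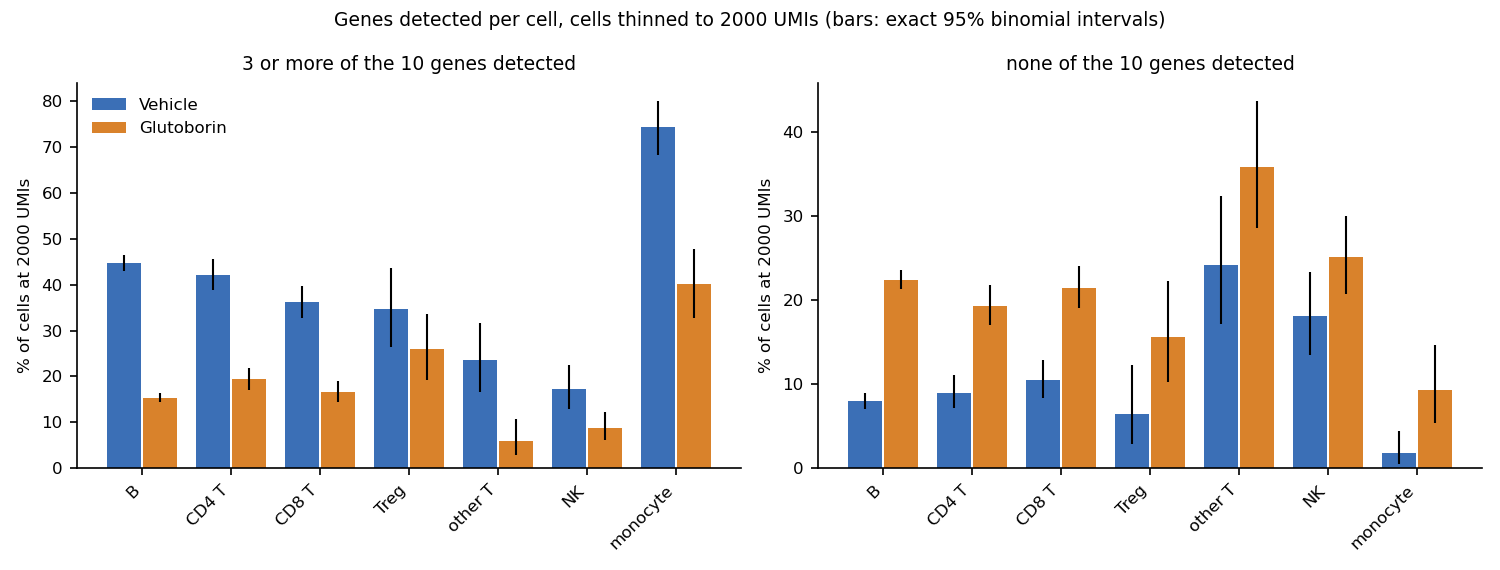
Share of cells, thinned to 2000 UMIs, with at least 3 of the 10 genes detected (left) and with none (right), by class and library, with exact 95% binomial intervals as bars. In B cells the left-hand share is 44.7% in Vehicle and 15.3% in Glutoborin, and in monocytes it is 74.4% and 40.1%.

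The classes were not made of the same clusters in the 2 libraries. Clustering had been done without the members and without the interferon-induced genes. B cell cluster 2 held 30.7% of Vehicle but 7.78% of Glutoborin B cells and had the highest summed level of the members of the B clusters, 2116 and 1416 CPM, while cluster 1 held 8.30% and 23.9%, at 1210 and 755 CPM. CD4 cluster T9 made up 16.4% of the CD4 T cells in Vehicle and 2.07% in Glutoborin, at 2673 and 1795 CPM, and CD8 cluster T6 held 32.3% and 17.8%. Within each of the 9 B clusters the summed level was lower in Glutoborin, with a median log2 ratio of the measured members from -0.54 in cluster 2 to -1.09 in cluster 5. T cell clusters were less uniform. Measured members at least 1.5-fold lower ran from 1 of 9 in T5 (median -0.22) to 7 of 9 in T11 (-0.69) among CD4 clusters. Among CD8 clusters they ran from 2 of 9 in T13 (-0.50) to 6 of 8 in T16 (-1.15). CD4 cluster T2, with 35.1% of Glutoborin CD4 T cells, had 3 of 9. Leaving out cluster 2 gave 8 of 9 measured members lower in B cells, with a median of -0.92. Leaving out T9 gave 6 of 10 in CD4 T cells (median -0.62), and leaving out T6 gave 4 of 10 in CD8 T cells (-0.50). Monocytes had 7 of 10 lower without cluster M13, which held 17 and 3 cells at 3041 and 3329 CPM.

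**Figure D4:**
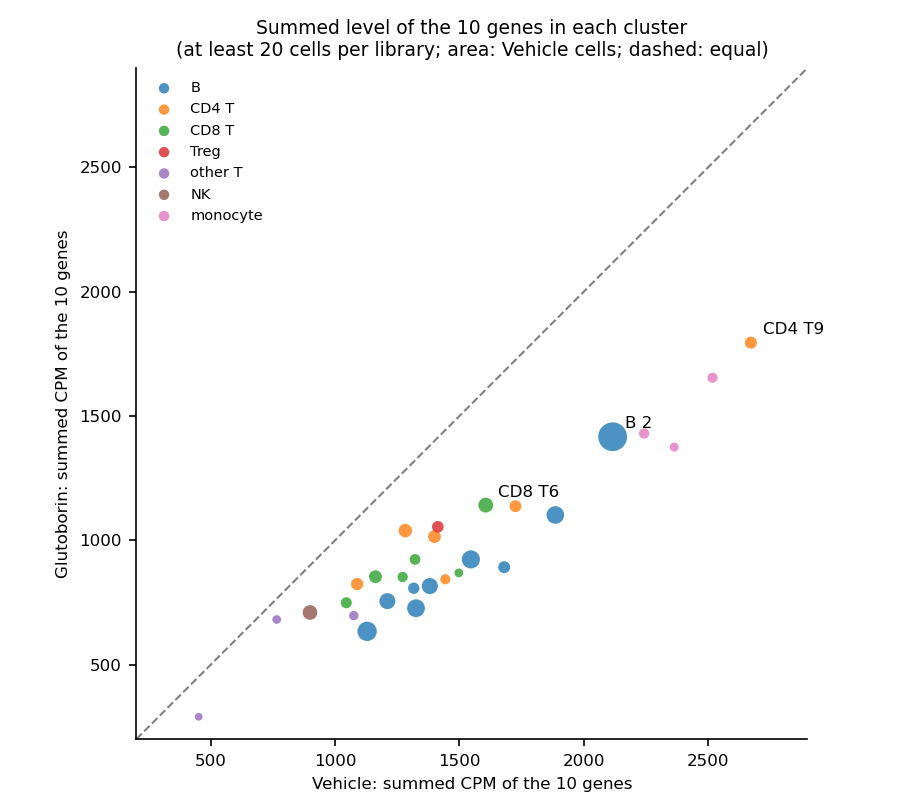
Summed CPM of the 10 genes in each cluster, Vehicle on the horizontal and Glutoborin on the vertical axis, coloured by class and with area for the number of Vehicle cells; clusters with under 20 cells in a library are left out. Every point lies below the dashed line of equal levels, and B cluster 2 (2116 and 1416 CPM) and CD4 cluster T9 (2673 and 1795 CPM) lie at the upper right of their classes.

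Genes related to the members by family or structure were mostly near the median of all genes. Of 12 other Parp family genes measured in B cells, 1 was lower and 1 higher by 1.5-fold, with a median log2 ratio of -0.05: Parp11, another mono-ADP-ribosyltransferase, went from 49.7 to 32.1 CPM, and Parp16, of the endoplasmic reticulum, from 0.962 to 2.26 CPM. None of 11 was past 1.5-fold in CD4 or CD8 T cells, where the zinc finger antiviral protein gene Zc3hav1 had ratios of -0.22 and -0.29. Hydrolases that remove ADP-ribose had 0 of 5 genes past the limit in B cells, with Adprh at 49.4 and 55.3 CPM. Among 18 other Pml body genes 1 was lower in B cells, Sp140, from 192 to 128 CPM (log2 ratio -0.59). Sp110 fell just short there, from 361 to 244 CPM (-0.57), and both ratios were below that of the member Sp100, -0.52. In CD4 T cells Sp140 was at -0.59 and Sp110 at -0.23, beside -0.36 for Sp100. In monocytes 3 of 16 were lower, namely Sp140, a relative of Sp100, at 224 and 113 CPM, its relative Sp110 at 425 and 270 CPM, and Nbn, a DNA repair gene, at 18.0 and 9.22 CPM. Inhibitor of apoptosis and caspase genes had 0 of 9 past the limit in B cells, with Birc3 at 133 and 131 CPM.

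Genes known to be induced by type I interferon were lower more widely. In B cells 32 of 33 passed the limit downwards, and their median was -1.50 (log2). Ifit1 went from 50.2 to 7.61 CPM and Ifit3 from 142 to 24.2 CPM there. The counts were 30 of 32 in CD4 and in CD8 T cells (medians -1.32 and -0.89), 32 of 33 in monocytes (-1.09), 16 of 24 in NK cells (-0.79), 14 of 27 in other T cells (-0.64) and 7 of 21 in regulatory T cells (-0.42). Regulatory T cells were the one class whose median for the members, -0.61, lay below that of this list. Of 13 interferon receptor and signalling genes, 4 were lower in B cells, among them Irf7 from 229 to 70.9 CPM and Stat2 from 107 to 47.7 CPM, while their median was 0.03. Ubiquitous genes had 0 of 12 past the limit in B cells, with Actb at 9222 and 9233 CPM.

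**Figure D5:**
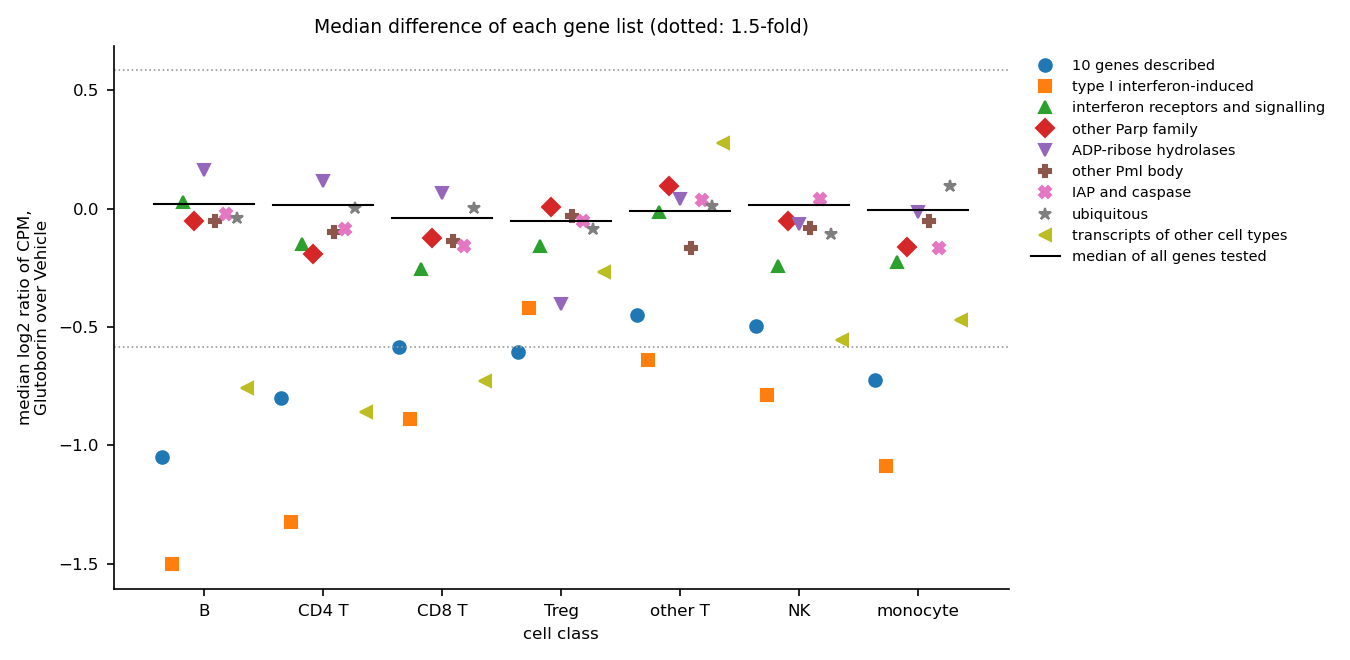
Median log2 ratio of CPM, Glutoborin over Vehicle, of the 10 genes and of 8 related lists in each class; black bars give the median of all genes tested and dotted lines mark 1.5-fold. In B cells the 10 genes (circles) lie at -1.05 and the interferon-induced list (squares) at -1.50; the list of transcripts of other cell types (left-pointing triangles) lies below the 10 genes in CD4 T, CD8 T and NK cells, at -0.86, -0.73 and -0.55.

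The members also resembled interferon-induced genes in their pattern over classes. Over 14 profiles, the 7 classes in both libraries, the mean standardised log2(CPM + 1) of the members was most like Zbp1, Ifit3 and Herc6 among 10234 genes, each with Pearson's r of 0.97, followed by Tapbp, Irf7, Irf1, Oasl2, Ifi47, Rtp4 and Slfn8. These profiles share libraries and free RNA, so r is a description. It also reflects the difference between the libraries, and likeness over classes within 1 library was not computed. Parp9 was most like Ifi47 (0.97), Dtx3l like Gbp2 (0.99), Parp14 like Stat2 (0.98), Parp10 like Ifi47 (0.91), Parp12 like Oas3 (0.96), Daxx like Rsad2 (0.97) and both Xaf1 and Rnf213 like Zbp1 (0.97). Pml stood apart, with Trim34a (0.97), Dnajc7 (0.94) and Igkc (0.90) as its nearest genes, and Sp100 was nearest to Tlk2 (0.91). Between members r was 0.97 for Xaf1 with Rnf213 and 0.95 for Parp9 with Dtx3l, but 0.16 for Pml with Dtx3l and -0.11 for Pml with Parp12.

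There were 6 classes with 20 or more cells on both sides that were too small for the comparison. In them every member except Parp10 and Pml was lower in Glutoborin throughout, but only for Rnf213 and Sp100 did all intervals lie below 0. The Xaf1 interval crossed 0 in plasmacytoid dendritic cells (-1.84 to 0.41) and neutrophils (-2.52 to 0.18). Parp10 was higher in Glutoborin in red pulp macrophages, at 52.9 and 70.6 CPM (log2 ratio 0.42, -0.58 to 1.46), and in type 2 and mature dendritic cells, on 3 and 11 and on 3 and 10 UMIs. Pml was at 74.1 and 76.8 CPM in red pulp macrophages and at 67.8 and 78.6 CPM in mature dendritic cells, and neutrophils held 0 and 4 Pml UMIs. All of these intervals include 0. Red pulp macrophages also had the highest Dtx3l level of all 13 classes with a level in both libraries, at 289 and 221 CPM, with intervals that overlap their neighbours. Rnf213 went from 399 to 166 CPM in red pulp macrophages (log2 ratio -1.27, -1.76 to -0.79), from 152 to 40.5 CPM in plasmacytoid dendritic cells and from 124 to 64.3 CPM in NKT-like cells. Plasmacytoid dendritic cells had 197 CPM of Pml in Vehicle against 149.9 in Glutoborin, on 53 and 37 UMIs. Mature dendritic cells had 22 and 31 cells, and Daxx there rested on 16 and 5 UMIs.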

How the data were processed

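Droplet single-cell RNA libraries of sorted mouse spleen leukocytes were analysed, 1 Vehicle and 1 Glutoborin, grouped by the treatment in the labels. The deposited values are raw UMI counts for each gene in each barcode, and every barcode had at least 500 UMIs. Per the file headers, the matrices come from Cell Ranger 6.1.2, whereas the submitters' processing notes name Cell Ranger 6.0.1 with Seurat 4.3.0 and mm10. Neither names a gene annotation. Identifiers of 32235 of 32285 genes (99.8%) were found in GENCODE M21 on GRCm38, which gave positions.

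Cells were kept at 300 or more genes, 500 or more UMIs and less than 10% mitochondrial counts. Scrublet, per library, called 196 (2.93%) Vehicle and 352 (3.80%) Glutoborin doublets, which were left out. Scanpy 1.11.5 was used with 2000 variable genes (leaving out the members, the interferon-induced genes, antigen receptor segments and ribosomal, stress and early-response genes), 30 principal components, 15 neighbours and Leiden resolution 1.5, without batch correction. T cells and myeloid cells were clustered again. Clusters were named from 23 marker lists, with limits set after the clusters were seen. Unnamed clusters held 5.02% of Vehicle and 3.90% of Glutoborin cells.

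Counts were summed per class and library. Intervals are exact Poisson (sums and ratios) and Clopper-Pearson (shares), at the 95% level. A member was measured in a class with at least 50 UMIs over both libraries and called at 1.5-fold. The ratio intervals were run on simulated Poisson counts. These leave out spread between cells and animals, so the run checks the calculation only. All 10 members are named. From each related list, up to 3 genes past 1.5-fold in each direction were eligible, ranked by the bound nearest to no change, or else the 2 with the most UMIs. Likeness used genes with at least 200 UMIs. The members and lists were chosen with earlier results of these data known.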

Additional observations from a re-analysis of the deposited data

How the results depend on the processing

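Counts of members at least 1.5-fold lower changed with cell filters, clustering, thinning, cluster weighting or RNA subtraction, mainly in T cell classes. The cause was not tested. In CD4 T cells the count of 9 became 5 with a mitochondrial limit of 25%, 5 with doublets kept and 4 at a clustering resolution of 0.8. In CD8 T cells the count of 5 became 9 with the 25% limit and 3 with B cell RNA subtracted in proportion to Igkc. In regulatory T cells the count of 6 became 3 with doublets kept and 2 after thinning each cell to 2000 UMIs before summing. In other T cells the count of 4 became 9 with doublets kept, 10 at resolution 0.8 and 1 after thinning. With doublets kept and at resolution 0.8 this class took in a cluster of 54 Vehicle and 3 Glutoborin cells, or of 55 and 5, with Ifit1 among its leading genes. In monocytes the count of 7 became 4 with the Glutoborin clusters weighted as in Vehicle. In B cells it was 8 or 9 under all 10 alternatives run. The number of members 1.5-fold higher was 0 in each class under each alternative run. Median-of-ratios scaling moved log2 ratios by at most 0.054, and leaving out the 10 cells richest in a gene moved them by a median of -0.02 and by at most 0.75. The cluster weighting, the exclusion of the cluster highest in the members (run where it held under 50% of a class) and the RNA subtractions were chosen after seeing the data.

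No paired analysis was possible because each group has 1 library and the labels give no replicate numbers. With 1 library per group, mouse, library and treatment cannot be told apart. Parp12 outside monocytes, and all members in classes under 100 cells, are limited by depth.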

Other observations

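The members were also lower in Glutoborin in barcodes that entered no comparison. No share or median over all genes was computed in these barcodes, so a general difference between the libraries there was not tested. In the 326 Vehicle and 347 Glutoborin cells of unnamed clusters, all 10 had a log2 ratio of CPM with an interval below 0, from -0.69 for Dtx3l to -1.48 for Parp12, with Rnf213 at 226 and 81.8 CPM. In the 1515 Vehicle and 393 Glutoborin barcodes with at least 10% mitochondrial UMIs, Rnf213 stood at 265 and 87.4 CPM (-1.60, -2.08 to -1.16) and Pml at 363 and 199 CPM (-0.87, -1.19 to -0.57). Dtx3l in those barcodes went from 104 to 81.4 CPM, with an interval of the log2 ratio from -0.87 to 0.14.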
